A study of Homo sapiens with 6 samples.

Results

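The genes described here are 10 enzymes and transporters of detoxification: the aldo-keto reductases AKR1B1, AKR1B10, AKR1C1, AKR1C2 and AKR1C3, the aldehyde dehydrogenase ALDH3A1, the carbonyl reductase CBR1, the UDP-glucose dehydrogenase UGDH, and the export pumps ABCC2 and ABCC3. They were chosen by symbol, as genes known to respond to the transcription factor NRF2. Earlier results of these data were known when the choice was made. All 10 were found among the 29476 genes of the deposited table. RNA sequencing was done on 6 libraries of A549, an established human lung adenocarcinoma cell line. The 3 si-NC libraries came from cells given a negative control siRNA and the 3 si-NORAD libraries from cells in which an siRNA targeted NORAD, a long noncoding RNA. Both groups were the same line, grown in the same medium and transfected with the same lipid reagent. The libraries of each group are numbered 4, 5 and 6, and values are listed in that order throughout. No untransfected cells and no second siRNA against NORAD were among the samples used here. Nothing in the labels says that these are separate cultures, and the p-values therefore reflect variation between libraries that may be technical.

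NRF2, encoded by NFE2L2, is a transcription factor that KEAP1 normally holds in the cytoplasm and hands to a ubiquitin ligase for destruction. Oxidants and electrophiles modify KEAP1, NRF2 then enters the nucleus, pairs with a small MAF protein and binds antioxidant response elements near genes that reduce, conjugate or export reactive compounds. A549 cells carry a mutated KEAP1, so NRF2 is known to stay active in them without an added stress, and aldo-keto reductases are known to be abundant in such lung tumours.

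Total counts ran from 19332334 to 32760606 per library. NORAD, the targeted RNA, measured 550, 461 and 423 CPM (counts scaled to a common library size, with TMM) in the si-NC libraries against 359, 372 and 400 CPM in the si-NORAD libraries, and the edgeR quasi-likelihood test gave a log2 fold change of -0.34 with an adjusted p of 0.196. The si-NC libraries were not alike. The median gene had a coefficient of variation of 13.6% among the si-NC libraries and 5.08% among the si-NORAD libraries. The 5 markers of simple epithelium (KRT7, KRT8, KRT18, KRT19 and CDH1) were all present, with summed levels of 1203 to 1689 FPKM (the deposited values, which scale counts by gene length and library total) in si-NC and 1217 to 1271 FPKM in si-NORAD.

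The sequences bear on how far the members can be told apart, since AKR1C1, AKR1C2 and AKR1C3 are neighbouring copies on chromosome 10. In GENCODE 29 (GRCh38) AKR1C1 spans positions 4963253 to 4983283 on the plus strand, AKR1C2 4987400 to 5018031 on the minus strand and AKR1C3 5035354 to 5107686 on the plus strand. Their coding sequences have 969 bases each. AKR1C1 and AKR1C2 differed at 19 of these bases (98.04% identity), and the last 186 coding bases, from 784 to 969, were identical. AKR1C3 differed from AKR1C1 at 83 bases (91.4% identity) and from AKR1C2 at 87 (91.0%). The stretch below covers coding positions 103 to 132, counted from the first base of the start codon. Among 30-base stretches that begin at a codon, it had the most differences from AKR1C1 in whichever copy differed less. Capitals mark the bases that differ from AKR1C1.
AKR1C1: ttagaggccaccaaattggcaattgaagct
AKR1C2: CtagaggccGTcaaattggcaatAgaagcC
AKR1C3: ttGgaggTcacAaaattAgcaatAgaagct
Reads that fall on the identical stretches fit more than 1 of these genes. Of the 100-base windows inside the coding sequence, 20.3% in AKR1C1, 26.4% in AKR1C2 and 9.77% in AKR1C3 occurred unchanged in another of the 3 genes. With windows of 50 bases these shares were 53.4%, 57.1% and 20.1%. Neither the read length nor the handling of reads that match several genes is stated. Such reads may have been left uncounted or counted for the wrong copy, so the levels of these 3 genes and their proportions are uncertain.

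The promoter windows of AKR1C1 and AKR1C2 were near copies as well. RefSeq windows (GRCh38.p14, 250 bases before to 50 after a start) were matched by symbol for 7 of the 10 members, in 9 windows, since AKR1B1 and AKR1C3 have more than 1 start. Set side by side with a shift of 4 bases, 264 of 296 bases (89.2%) of the AKR1C1 and AKR1C2 windows were the same. Each window was searched on both strands for TGANNNNGC, the loose core of the antioxidant response element, and for TGACNNNGC, its stricter form, whose matches are all matches of the loose core too. The loose core was found in 5 of the 9 windows (55.6%), those of 5 members, and in 41.8% of all 35116 windows. Below, 1 match per gene is in capitals, each shown 5′ to 3′ on the strand that carries it, to let the matches be compared.
AKR1C1: tataagagcaaTGAGCTGGCaacgcccctg
AKR1C2: tataagagcaaTGAGCTGGCaacgcccctg
CBR1: gccagctagccTGACTTTGCagaacccgca
UGDH: TGAGCTGGCcaaagcggatttgcccagcta
ABCC2: gcccctctacTGATGCTGCcctttgtgggt
The AKR1C1 stretch lies at chr10:4963364-4963393 on the minus strand and the AKR1C2 stretch at chr10:5003883-5003912 on the plus strand, and the 30 bases shown were identical. The CBR1 stretch, at chr21:36069855-36069884 on the minus strand, held the only match to the stricter form among the members, which 13.3% of all windows hold. A further loose match in the CBR1 window, at chr21:36069963-36069992 on the minus strand, is not shown. The UGDH stretch lies at chr4:39527660-39527689 on the minus strand and the ABCC2 stretch at chr10:99782457-99782486 on the plus strand. RefSeq and GENCODE starts differ. The AKR1C1, AKR1C2 and UGDH stretches, and the CBR1 match not shown, lie inside the GENCODE spans of their genes. These are matches of letters in short windows, not measured binding sites.

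The members spanned a wide range of abundance, from AKR1B10, which ranked 27 among all 29476 genes by mean FPKM, to AKR1C1, which ranked 6898. Together they held 0.589% of all counts. AKR1B10, which reduces retinal and fatty aldehydes, was the most abundant member in every library, with a mean over the 6 libraries of 926 FPKM. AKR1B1, the aldose reductase that turns glucose into sorbitol, followed at 287 FPKM. ALDH3A1, which oxidises aldehydes to acids, was at 233 FPKM, and UGDH, which makes the UDP-glucuronic acid used to conjugate drugs and steroids, at 183 FPKM. These 4 genes kept this order in 6 of 6 libraries.

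The transporters and the AKR1C enzymes were lower. ABCC2, which pumps conjugates across the apical membrane, and ABCC3, which pumps them across the basolateral membrane, had means of 65.6 and 64.7 FPKM and could not be ordered, since ABCC2 was the higher in 3 of 6 libraries. AKR1C3, which makes testosterone from androstenedione and also acts on prostaglandins, was at 37.9 FPKM. CBR1, which reduces quinones and anthracyclines, was at 27.0 FPKM and AKR1C2, which inactivates dihydrotestosterone, at 24.2 FPKM, with CBR1 above AKR1C2 in 5 of 6 libraries. AKR1C1, which inactivates progesterone, had the lowest level at 5.002 FPKM. The levels of AKR1C1 and AKR1C2 would be too low if reads that match both genes were left uncounted.

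These levels depend on the gene length used. The lengths behind the deposited FPKM equalled the union of all annotated exons in GENCODE 29 for each of the 10 members, 8765 bases for AKR1C1 and 1744 bases for AKR1B10. The principal transcript was taken as the longest one tagged so in that annotation, or the longest coding one where none was tagged. It had 6705 bases for AKR1C1, 1590 for AKR1B10, 1409 for AKR1B1 and 1807 for AKR1C3. Recomputed with the principal transcript, the mean level was 747 FPKM for AKR1B1, 94.9 FPKM for AKR1C3, 88.5 FPKM for ABCC2 and 109 FPKM for ABCC3. AKR1B10 (1016 FPKM), AKR1B1, ALDH3A1 (474 FPKM) and UGDH (230 FPKM) kept the top of the order and AKR1C1 (6.54 FPKM) stayed last, while AKR1C3 moved above ABCC2. With the shortest annotated transcript of the same coding length, 972 bases, AKR1C3 was at 176 FPKM, above both transporters.

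**Figure D1:**
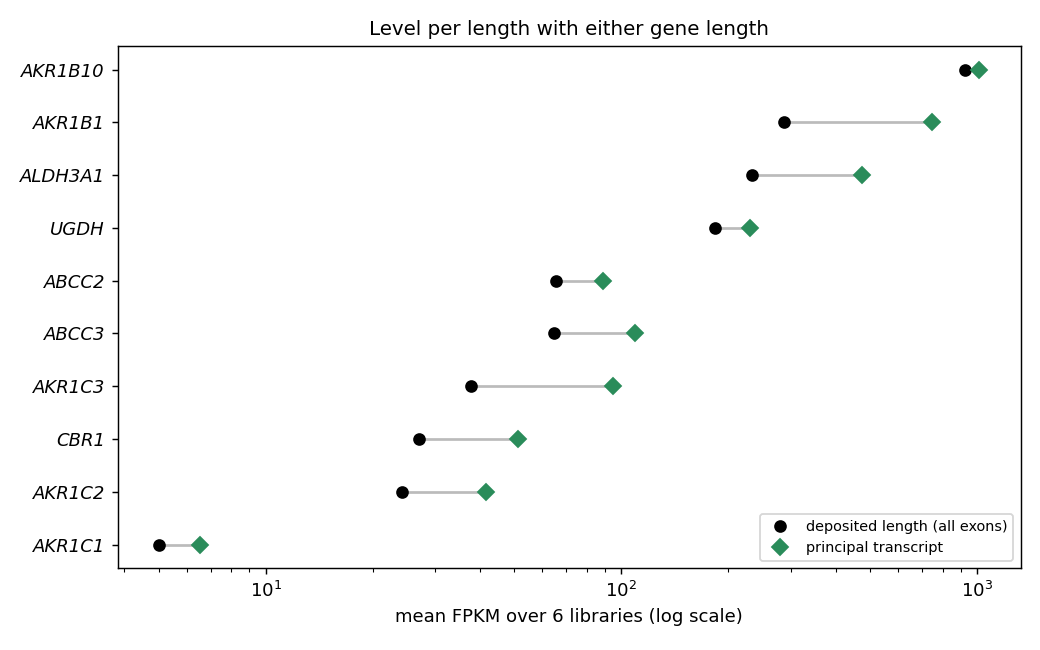
Mean FPKM over the 6 libraries (horizontal log axis) of the 10 genes, with the deposited gene length (black circles) and with the length of the principal transcript (green diamonds). AKR1B10 lies highest (926 and 1016 FPKM) and AKR1C1 lowest (5.002 and 6.54 FPKM) with either length, and AKR1B1 moves from 287 to 747 FPKM.

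Setting si-NORAD against si-NC addresses whether the level of any of these transcripts differed with the siRNA given. None of the 10 members passed in the edgeR quasi-likelihood test (adjusted p from 0.198 to 0.896), where 1 of 15515 genes tested, 0.00645%, was called at an adjusted p under 0.05. At an unadjusted p under 0.05 there were 3 members, AKR1C3, CBR1 and ABCC3, against 21.6% of all genes, and DESeq2 called 0 members where it called 4% of the genes it tested. Fitted values were lower in si-NORAD for 8 members, all 5 aldo-keto reductases, ALDH3A1, CBR1 and UGDH, and higher for both transporters, where 49.1% of all genes tested had lower values. Those of ALDH3A1 (-0.04) and UGDH (-0.06) were near 0. By mean FPKM, ALDH3A1 was higher in si-NORAD (235 FPKM) than in si-NC (230 FPKM). The median log2 fold change of the members was -0.18, and that of all genes tested 0.00553.

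The aldo-keto reductases of the AKR1B branch are on chromosome 7. AKR1B1 (positions 134442350 to 134459284, minus strand) measured 951, 1171 and 1282 CPM in the si-NC libraries against 970, 980 and 983 CPM in the si-NORAD libraries. The si-NORAD libraries lay within a narrow band that held neither si-NC 5 nor si-NC 6, both above it, nor si-NC 4, just below it. The log2 fold change was -0.21 (SE 0.11, 95% interval -0.47 to 0.04, adjusted p = 0.292). AKR1B10 (positions 134527592 to 134541408, plus strand) measured 1423, 1750 and 1929 CPM in the si-NC libraries against 1545, 1520 and 1557 CPM in the si-NORAD libraries. As for AKR1B1, si-NC 4 was the lowest of the 6 libraries and si-NC 6 the highest. Its log2 fold change was -0.14 (SE 0.12, interval -0.41 to 0.12, adjusted p = 0.475). The near copies AKR1B15 and AKR1B10P1 had 26 to 58 and 7 to 19 counts per library, against 30358 or more for AKR1B10.

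In the AKR1C branch AKR1C3 had the lowest adjusted p. AKR1C3 measured 156, 187 and 249 CPM in the si-NC libraries against 149, 141 and 154 CPM in the si-NORAD libraries. All 3 si-NORAD values lay below all 3 si-NC values, although si-NC 4 exceeded the highest si-NORAD library by little. The fitted change was -24.9%, a log2 fold change of -0.41 (SE 0.15, interval -0.75 to -0.07, adjusted p = 0.203). AKR1C2 measured 139, 161 and 220 CPM in the si-NC libraries against 145, 123 and 152 CPM in the si-NORAD libraries. AKR1C1 measured 38.0, 44.5 and 60.4 CPM in the si-NC libraries against 42.4, 35.3 and 43.7 CPM in the si-NORAD libraries. In both genes si-NC 6 stood highest and si-NORAD 5 lowest, and the groups overlapped. The log2 fold changes were -0.31 (SE 0.16, interval -0.66 to 0.05, adjusted p = 0.281) for AKR1C2 and -0.23 (SE 0.16, interval -0.60 to 0.13, adjusted p = 0.399) for AKR1C1.

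Because reads may have been counted for the wrong copy, the counts of AKR1C1, AKR1C2 and AKR1C3 were also summed before the fit. A sum does not restore reads that were left uncounted. The sum measured 333, 392 and 529 CPM in the si-NC libraries against 337, 299 and 350 CPM in the si-NORAD libraries, with a log2 fold change of -0.35 (SE 0.16, interval -0.70 to 0.00337, adjusted p = 0.235). For the sum, si-NC 4 lay inside the range of the si-NORAD libraries and si-NC 6 far above it.

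The genes of the other reducing and oxidising enzymes lie on different chromosomes. CBR1 (chromosome 21, positions 36069941 to 36073166, plus strand) measured 58.0, 79.9 and 91.4 CPM in the si-NC libraries against 55.9, 58.7 and 55.1 CPM in the si-NORAD libraries. Here si-NC 4 lay among the si-NORAD libraries and si-NC 5 and si-NC 6 lay well above them. CBR1 had the lowest adjusted p of the members, 0.198, with a log2 fold change of -0.43 (SE 0.15, interval -0.76 to -0.11). Its exons share 464 bases with AP000688.1 on the opposite strand, a gene with 0 to 9 counts per library. Of the 100-base windows of the CBR1 principal transcript, 30.6% occur in AP000688.1. Whether reads were counted by strand is not stated. If they were not, reads in the overlap may have been left uncounted, and the level of CBR1 would then be too low.

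ALDH3A1 (chromosome 17, positions 19737984 to 19748943, minus strand) measured 761, 846 and 1172 CPM in the si-NC libraries against 915, 846 and 945 CPM in the si-NORAD libraries. The si-NC libraries spanned the whole si-NORAD range. Its log2 fold change was -0.04 (SE 0.15, interval -0.38 to 0.30, adjusted p = 0.896). UGDH (chromosome 4, positions 39498755 to 39528311, minus strand) measured 739, 738 and 794 CPM in the si-NC libraries against 717, 701 and 758 CPM in the si-NORAD libraries, with a log2 fold change of -0.06 (SE 0.08, interval -0.25 to 0.12, adjusted p = 0.663). UGDH was the member with the smallest spread among the si-NC libraries, a coefficient of variation of 4.23%. The antisense genes AC005722.3 and UGDH-AS1, which overlap 98 and 293 exonic bases of ALDH3A1 and UGDH, had 40 to 102 and 26 to 57 counts per library.

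The transporters had values in the other direction. ABCC3 (chromosome 17, positions 50634777 to 50692252, plus strand) measured 635, 551 and 539 CPM in the si-NC libraries against 668, 670 and 666 CPM in the si-NORAD libraries. All 3 si-NORAD values lay above all 3 si-NC values, and the log2 fold change was 0.22 (SE 0.09, interval 0.01 to 0.42, adjusted p = 0.219). ABCC2 (chromosome 10, positions 99782640 to 99852594, plus strand) measured 556, 447 and 399 CPM in the si-NC libraries against 557, 537 and 579 CPM in the si-NORAD libraries. For ABCC2 si-NC 4 lay among the si-NORAD libraries, and the log2 fold change was 0.25 (SE 0.12, interval -0.02 to 0.53, adjusted p = 0.253). In all, the groups did not overlap for 1 member that was lower, AKR1C3, and 1 that was higher, ABCC3, where 12.7% of all genes tested were lower and 12.7% higher without overlap.

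**Figure D2:**
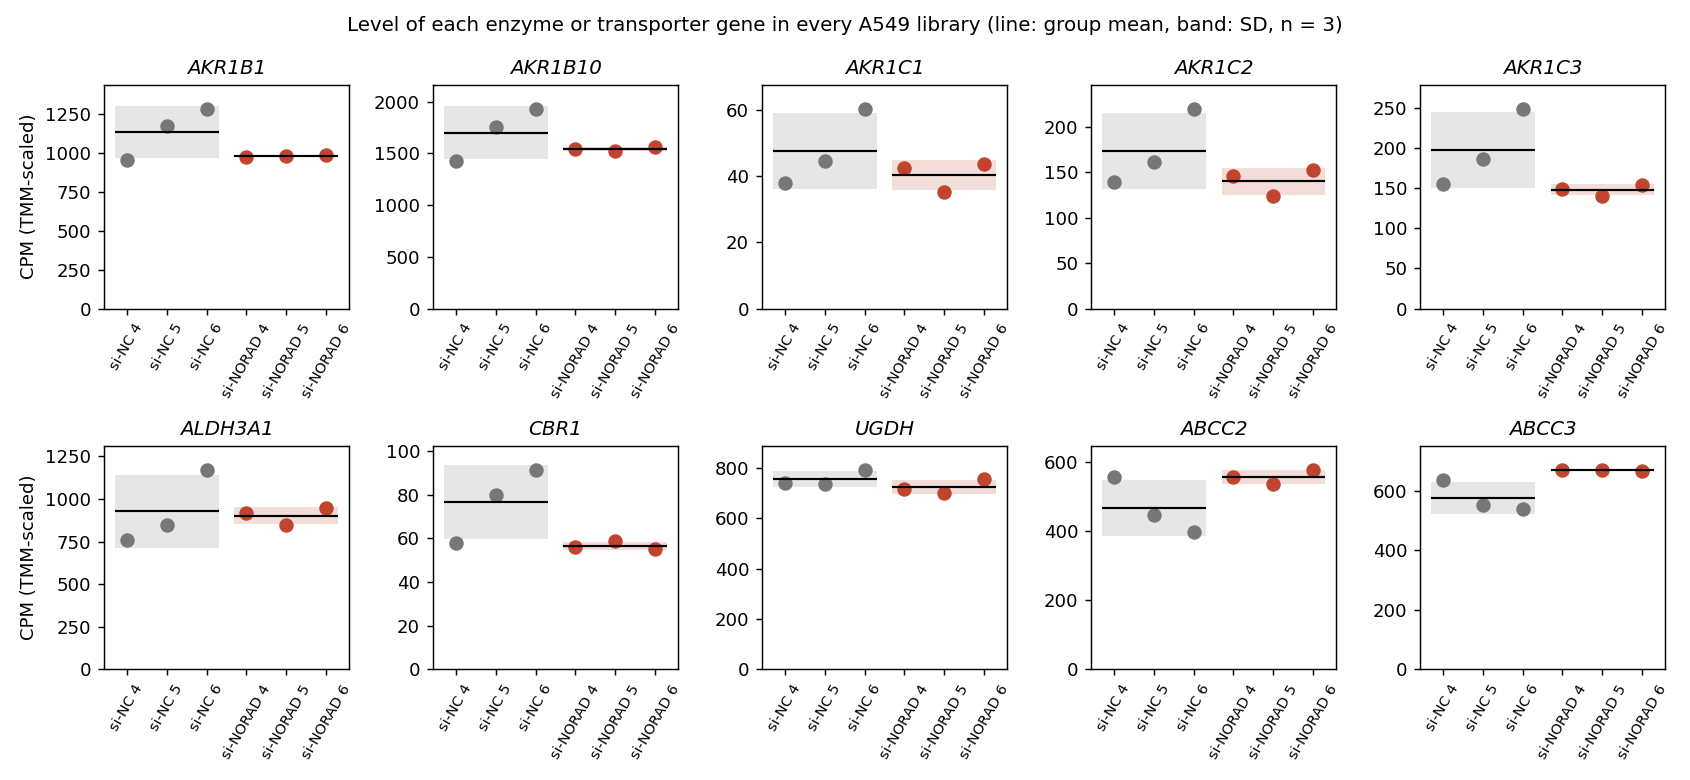
CPM (vertical axis from 0, TMM-scaled) of each of the 10 genes in the 3 si-NC (grey) and 3 si-NORAD (red) libraries, 1 point per library, with the group mean as a line and its SD as a band. The si-NORAD points lie close together, as for AKR1B1 at 970 to 983 CPM, while the si-NC points spread, as for AKR1B1 at 951 to 1282 CPM.

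The control libraries differed more among themselves than the si-NORAD libraries did. All 10 members varied more among the si-NC than among the si-NORAD libraries, as did 80.2% of all genes tested. Coefficients of variation ran from 4.23% to 24.1% in si-NC and from 0.337% to 11.2% in si-NORAD. The library si-NC 6 was the highest of the 6 for 8 members (30.3% of all genes) and the lowest for ABCC2 and ABCC3 (32.9% of all genes). The library si-NC 4 lay within the range of the si-NORAD libraries for 5 members, si-NC 5 for 2 and si-NC 6 for 0, against 40.6%, 22.8% and 17.3% of all genes.

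Each member's profile over the 6 libraries was compared with those of the other members only, and 6 members formed 3 mutually nearest pairs. Whether genes outside the members lay nearer to a single member was not tested. By the root mean square difference between centred log2 CPM values, AKR1C1 and AKR1C2 were nearest to each other (0.04), as were AKR1B1 and AKR1B10 (0.04) and ABCC2 and ABCC3 (0.08). In the principal transcripts, 17.4% of the 100-base windows of AKR1C1 and 32.9% of those of AKR1C2 occurred in another gene, 0% of those of AKR1B1, ABCC2 and ABCC3, and 2.01% of those of AKR1B10. With 50-base windows the shares were 4.78% for AKR1B1 and 17.7% for AKR1B10, and the part of shared reads in these likenesses was not tested. AKR1C3 was nearest to AKR1C2 (0.08), CBR1 to AKR1C3 (0.10), ALDH3A1 to AKR1C1 (0.11) and UGDH to AKR1B10 (0.12). Outside the members, the genes of at least 10 CPM nearest to their mean profile were DOK4, TSC22D4 and UBAC1 (0.02 each), a description over 6 libraries.

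**Figure D3:**
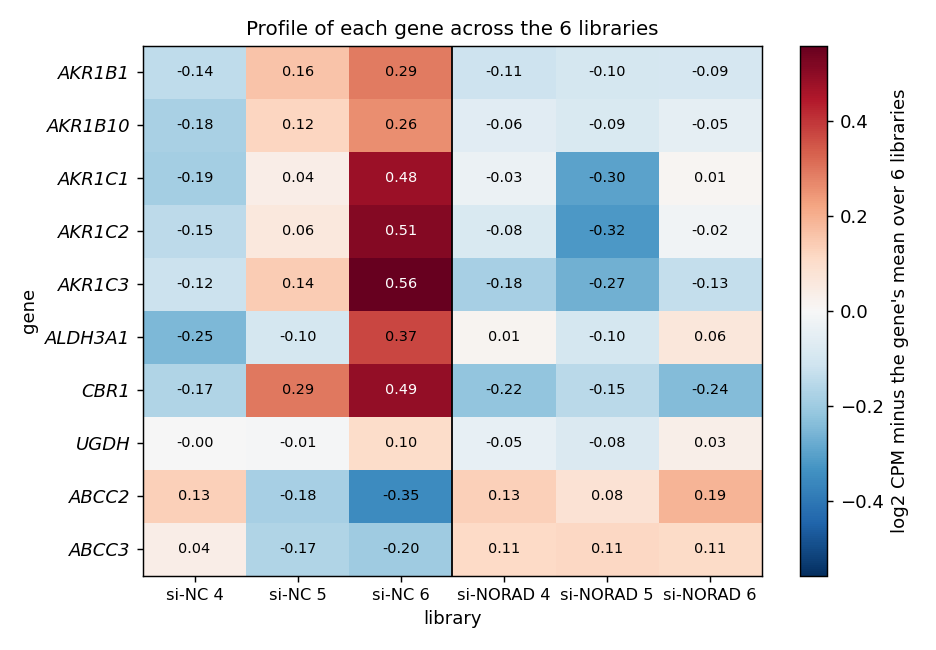
Log2 CPM minus the gene's mean over the 6 libraries (colour and printed value) for each of the 10 genes (vertical axis) in each library (horizontal axis), with a line between the groups. The column of si-NC 6 holds the highest value of 8 genes, up to 0.56 for AKR1C3, and the lowest of ABCC2 (-0.35) and ABCC3 (-0.20).

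The outcome turned on which control libraries were used. Without si-NC 4, edgeR called 8 of the 10 members, 6 lower and 2 higher, but it then called 39.3% of all genes tested, 20.3% lower and 19% higher. The 6 that fell in that fit were CBR1 (log2 fold change -0.60, adjusted p = 4.38e-05), AKR1C3 (-0.56, 0.000921), AKR1C2 (-0.44, 0.0162), AKR1C1 (-0.37, 0.0309), AKR1B1 (-0.33, 0.000288) and AKR1B10 (-0.26, 0.00152). The 2 that rose were ABCC2 (0.40, 0.000252) and ABCC3 (0.29, 0.000408), and ALDH3A1 (-0.16, 0.276) and UGDH (-0.08, 0.263) did not pass.

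When both si-NC 5 and si-NC 6 were dropped, so that si-NC 4 stood alone and was assumed to vary like the si-NORAD libraries, 1 member was called, against 3.05% of all genes tested. That member was ALDH3A1, with a higher value (log2 fold change 0.24, adjusted p = 6.34e-06). Against si-NC 4 alone, AKR1B1 (0.04), AKR1B10 (0.11), AKR1C1 (0.09) and AKR1C2 (0.01) had higher fitted values in si-NORAD, the opposite of the fit on all libraries. CBR1 (-0.04), AKR1C3 (-0.07), UGDH (-0.03), ABCC2 (0.00279) and ABCC3 (0.07) kept their direction with small values. Without the low-count filter edgeR called AKR1C2, AKR1C3 and CBR1, all lower (adjusted p = 0.0363, 0.00157 and 0.00147). In that fit 3.57% of 29476 genes were called lower, a share taken over low-count genes too.

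**Figure D4:**
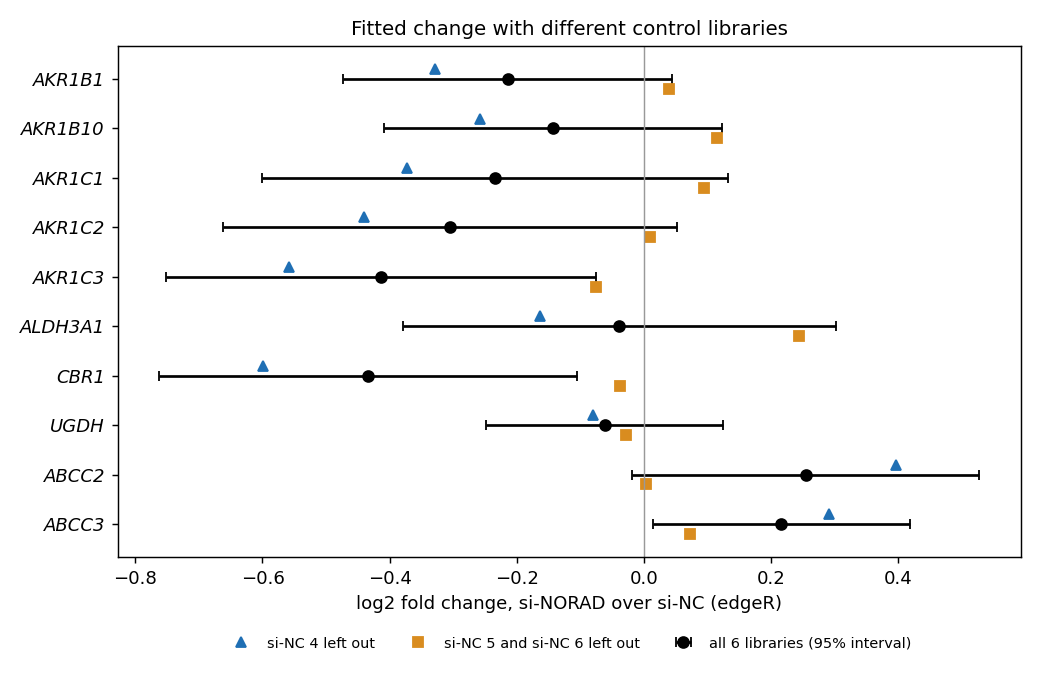
Log2 fold change of si-NORAD over si-NC by edgeR (horizontal axis) for each gene (vertical axis), with all 6 libraries and its 95% interval (black), with si-NC 4 left out (blue triangles) and with both si-NC 5 and si-NC 6 dropped (orange squares). The triangles lie farther from 0 than the circles for all 10 genes, and the squares lie near 0 for most, with ALDH3A1 at 0.24.

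Gene length moved with the difference among the control libraries. When the 15515 genes tested were split by deposited length into 3 groups of equal size, the median log2 fold change was -0.15 in the shortest (up to 3382 bases), -0.01 in the middle and 0.13 in the longest (from 6193 bases). Against si-NC 4 alone these medians of mean CPM ratios were -0.000531, -0.01 and 0.01, and against the average of si-NC 5 with si-NC 6 they were -0.22, -0.02 and 0.20. AKR1B10 and CBR1 (2450 bases) are in the shortest group, and ABCC2 (7837 bases) and ABCC3 (9614 bases) in the longest, with AKR1C1 and AKR1C2 (6461 bases). With the trend over length removed from each library, the log2 fold change was -0.03 for AKR1B10, 0.15 for ABCC2 and 0.06 for ABCC3, all nearer to 0 than before. It was -0.39 for AKR1C1 and -0.39 for AKR1C2, farther from 0 than before, and -0.41 for AKR1C3, nearly unchanged. For CBR1 it was -0.33, for AKR1B1 -0.17, for ALDH3A1 -0.01 and for UGDH -0.04, nearer to 0 than before. With the trend removed edgeR called 0 members (lowest adjusted p = 0.149), where it called 0.0322% of all genes.

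The pathway around the members was described with 3 lists. For their genes the levels are deposited FPKM, scaled by total counts, while the log2 fold changes are fitted to TMM-scaled counts. For FTH1, ALDH1A1 and ALDH3A2 the fitted fold change is negative although the mean FPKM is higher in si-NORAD. Of 10 regulators of NRF2, all tested, 5 had higher and 5 lower values and 0 were called, with a median log2 fold change of -0.02. NFE2L2, which encodes NRF2 itself, measured 97.98, 97.5 and 98.3 CPM in the si-NC libraries against 91.1, 85.8 and 87.1 CPM in the si-NORAD libraries. Here si-NC 4 was close to si-NC 5 and si-NC 6. All 3 si-NORAD values lay below all 3 si-NC values, as for 12.7% of all genes tested. NFE2L2 was picked for description after its values were seen, so its separation is no independent result. The log2 fold change of NFE2L2 was -0.15 (SE 0.07, interval -0.31 to 0.00515, adjusted p = 0.242), and it was -0.15 both without si-NC 4 (adjusted p = 0.0490) and with si-NC 4 as the lone control (adjusted p = 0.0967). Without si-NC 4, where 39.3% of all genes were called, 3 of the 10 regulators were called higher and 3 lower, among them NFE2L1 (0.32, adjusted p = 0.0016) and KEAP1 (-0.28, adjusted p = 0.003525). With si-NC 4 as the lone control 0 regulators were called. The 4 most abundant regulators were SQSTM1, an autophagy receptor that sequesters KEAP1, at 143 ± 11.3 FPKM in si-NC and 140 ± 6.94 FPKM in si-NORAD (SD, n = 3 each), NFE2L1, an NRF2 relative, at 41.5 ± 5.96 and 50.9 ± 1.88 FPKM, MAFG, a partner of NRF2, at 27.0 ± 2.35 and 29.7 ± 1.06 FPKM, and KEAP1 at 25.8 ± 2.04 and 23.6 ± 1.40 FPKM. Their log2 fold changes were -0.09, 0.24, 0.08 and -0.19.

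Of 34 tested genes among 36 other NRF2 targets, 28 had lower and 6 higher values in si-NORAD, where 49.1% of all genes tested were lower. None was called, and the median log2 fold change was -0.14. Without overlap of the groups 10 were lower and 0 higher, against 12.7% of all genes in each direction. The list was drawn up with earlier results of these data known, so these counts are a description and not a test. FTL, a ferritin subunit, was at 7134 ± 866 FPKM in si-NC and 6269 ± 95.4 FPKM in si-NORAD (log2 fold change -0.25). TXN, the thioredoxin that reduces protein disulfides, was at 672 ± 126 and 496 ± 19.3 FPKM (-0.50). FTH1, the other ferritin subunit, was at 410 ± 14.6 and 412 ± 11.7 FPKM (-0.06), and NQO1, a quinone reductase, at 368 ± 39.3 and 340 ± 1.57 FPKM (-0.18). Without si-NC 4, edgeR called 20 of this list lower and 1 higher, where it called 20.3% of all genes lower and 19% higher. With si-NC 4 as the lone control it called 0 lower and 1 higher, where 3.05% of all genes were called, and the list's median was -0.02.

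Relatives of the members in the same enzyme and transporter families were the third list. Of 24 tested among 31 listed, 10 had higher and 14 lower values and 0 were called, with a median log2 fold change of -0.02. Without overlap of the groups 6 were lower and 1 higher, against 12.7% of all genes in each direction. Without si-NC 4, 7 of 25 tested were called lower and 4 higher, where 20.3% and 19% of all genes were, and with si-NC 4 as the lone control 0 of 26 tested were called lower and 2 higher, where 3.05% of all genes were called. ALDH1A1, a retinal dehydrogenase, exceeded every member at 1592 ± 143 FPKM in si-NC and 1657 ± 23.9 FPKM in si-NORAD (log2 fold change -0.01 on TMM-scaled counts). ALDH3A2, which oxidises fatty aldehydes, was at 61.3 ± 2.54 and 61.7 ± 0.599 FPKM (-0.05) and ALDH3B1 at 37.5 ± 2.56 and 40.4 ± 0.667 FPKM (0.05). ABCC1, an export pump related to ABCC2 and ABCC3, was at 56.3 ± 8.44 and 66.4 ± 1.76 FPKM (0.18, adjusted p = 0.284). For ABCC1 the log2 fold change was 0.28 without si-NC 4 (adjusted p = 0.000858) and 0.00903 with si-NC 4 as the lone control (adjusted p = 0.963). The 2 relatives called as higher in that last fit were ALDH1A1 (0.17, adjusted p = 0.00136) and ALDH3B1 (0.15, adjusted p = 0.0342). AKR1C4, the liver member of the AKR1C branch, had 5 to 11 counts per library and was not tested.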

How the data were processed

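The tools named in the submitters' processing notes are HTSeq 0.6.1, HISAT2 and FastQC, and the build named is GRCh38. The deposited table holds whole-number counts per gene and library, not normalized by the authors, and FPKM values also deposited by the authors. Gene lengths were recovered from the ratio of count to FPKM, which agreed across libraries for 100% of values within 0.1%. Columns were matched to libraries by title, and 0 columns of other samples were present.

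Counts were fitted with edgeR 4.0.16 in R 4.3.3 (filterByExpr, TMM, robust quasi-likelihood F test, two-sided, no covariates, Benjamini-Hochberg over 15515 genes, called at an adjusted p under 0.05). Intervals are 95% and use the moderated degrees of freedom of that fit. The fit was tested on simulated data. Alternatives used DESeq2 1.42.0, limma 3.58.1 on voom values or log2 FPKM, other scalings and filters, and fewer libraries. At the depths here 1 count is 0.0305 to 0.0517 CPM.

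Sequences came from GENCODE 29 and RefSeq promoter windows. Named genes are all members, the 4 most abundant tested genes of each list and the genes nearest in profile. NFE2L2, AKR1C4, NORAD and overlapping or near-copy genes were added, NFE2L2 after its values were seen. The members and lists were chosen with earlier results of these data known. Several entries of the list of other NRF2 targets are less established than the rest.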

Additional observations from a re-analysis of the deposited data

How the results depend on the processing

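The count of genes called was 1 in the edgeR fit on all libraries (3354 at an unadjusted p under 0.05). It was 1935 without the low-count filter, 425 by DESeq2, 2 by limma-voom, 3 by limma on log2 FPKM plus 1 or plus 0.1, 5 with the length trend removed, 499 with si-NC 4 as the lone control, and 0 to 6251 when 1 library was left out. For these changes the cause was not tested. The count of members called, 0 of 10, became 3 without the low-count filter and 1 with si-NC 4 as the lone control, and ran from 0 to 8 when 1 library was left out, 8 being the fit without si-NC 4. With the replicate number as a block, 2 genes and 0 members were called. No pairing by number was seen: same-numbered libraries had correlations of deviations of -0.03, -0.02 and -0.07, and none correlated best with its own number. With 3 libraries per group these correlations cannot exclude a preparation shared by number. With si-NC 4 as the lone control the log2 fold changes of AKR1B1 (0.0399), AKR1B10 (0.115), AKR1C1 (0.094), AKR1C2 (0.0101) and ALDH3A1 (0.24) were reversed. That of ALDH3A1 was also reversed on log2 FPKM (0.0453 with a pseudocount of 1, with or without the filter, and 0.0455 with 0.1), without si-NC 6 (0.16) and without si-NORAD 5 (0.00493), and ran from -0.16 to 0.16 when 1 library was left out.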
